A study of Homo sapiens with 12 samples.

Results

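Ascorbic acid (AA) was compared with the untreated control in the clear cell renal cell carcinoma line labelled 769. The members are 6 of the 12 libraries of the series, chosen by the line, agent and enzyme in their labels. They come from 3 DNA samples: 1 control and 2 AA-treated samples, numbered 1 and 2 in the labels and called AA1 and AA2 here. Each DNA sample gave 1 HpaII library and 1 MspI library. The labels give no dose, no duration and no vehicle, and do not say whether AA1 and AA2 are separate cultures, doses or times, so the spread between them may be technical. The series holds the same 6 kinds of library from a second clear cell renal cell carcinoma line, labelled 786. In 769, 777458 of the 996035 CCGG sites with a tag anywhere in the series on chromosomes 1 to 22 and X had a tag.

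HELP-tagging reads methylation at the sequence CCGG. The enzyme HpaII cuts it only when the inner cytosine carries neither 5-methylcytosine nor 5-hydroxymethylcytosine, whereas MspI cuts it in either state. Ascorbate keeps the iron of the TET dioxygenases reduced, and these enzymes oxidise 5-methylcytosine on the path to its removal; kidney carcinoma cells are known for losses of 5-hydroxymethylcytosine. In most human cells isolated CpGs are methylated and CpG-dense promoters are not. The value used throughout is the ratio of a library's HpaII tag share to the MspI tag share of the same DNA sample, so that 1 is the mean of the nuclear genome and 0 means that no HpaII tag was seen. A ratio says where in the genome the HpaII tags lay. It does not give the total amount of modification, because each share adds up to the whole library.

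The promoters below lie in windows that passed the test described further on. Those of PROM1, SAMTOR, EP300-AS1 and ANKRD33B lie in 1 kb windows with a higher HpaII ratio after AA, and that of TRAPPC10 in a window with a lower one. Each line is the RefSeq sequence (GRCh38.p14) of the 250 bases before the start, 5′ to 3′ on the strand of the gene. CCGG, the site that both enzymes read, is in capitals and reads the same on both strands. Of the 35116 RefSeq promoters of 300 bases (250 before and 50 after the start), 63.1% hold at least 1 CCGG and 23.7% at least 4.
PROM1, outer start: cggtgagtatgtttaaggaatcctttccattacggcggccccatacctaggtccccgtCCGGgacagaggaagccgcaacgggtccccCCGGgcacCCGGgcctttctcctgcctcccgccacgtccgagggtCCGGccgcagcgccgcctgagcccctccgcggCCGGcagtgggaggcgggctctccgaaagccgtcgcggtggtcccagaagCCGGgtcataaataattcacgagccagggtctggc
PROM1, inner start: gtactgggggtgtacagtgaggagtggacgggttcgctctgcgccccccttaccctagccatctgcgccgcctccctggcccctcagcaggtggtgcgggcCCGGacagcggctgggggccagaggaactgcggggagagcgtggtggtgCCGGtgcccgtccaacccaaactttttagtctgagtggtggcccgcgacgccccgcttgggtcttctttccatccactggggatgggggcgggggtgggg
SAMTOR: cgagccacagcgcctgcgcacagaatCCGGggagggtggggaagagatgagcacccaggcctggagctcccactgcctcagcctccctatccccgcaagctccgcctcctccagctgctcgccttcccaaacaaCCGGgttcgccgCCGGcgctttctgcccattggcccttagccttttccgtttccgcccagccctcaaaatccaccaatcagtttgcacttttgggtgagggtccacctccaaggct
EP300-AS1: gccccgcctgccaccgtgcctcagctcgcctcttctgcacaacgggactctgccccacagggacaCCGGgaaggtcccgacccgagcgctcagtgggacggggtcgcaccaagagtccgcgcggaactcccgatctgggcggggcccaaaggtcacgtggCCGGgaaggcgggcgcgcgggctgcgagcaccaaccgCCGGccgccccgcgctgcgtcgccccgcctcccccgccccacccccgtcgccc
ANKRD33B: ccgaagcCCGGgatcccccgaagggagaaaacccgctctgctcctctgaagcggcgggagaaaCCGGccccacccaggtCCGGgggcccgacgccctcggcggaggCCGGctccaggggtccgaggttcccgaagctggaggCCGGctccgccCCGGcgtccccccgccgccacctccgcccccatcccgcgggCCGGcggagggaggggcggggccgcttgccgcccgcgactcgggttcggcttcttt
TRAPPC10: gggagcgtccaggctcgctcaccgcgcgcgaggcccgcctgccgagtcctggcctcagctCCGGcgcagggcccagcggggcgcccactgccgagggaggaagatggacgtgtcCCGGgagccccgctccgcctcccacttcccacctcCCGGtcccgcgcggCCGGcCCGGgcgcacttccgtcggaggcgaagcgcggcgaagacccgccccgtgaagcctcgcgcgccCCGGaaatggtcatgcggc
The pattern of distances between the CCGG sites placed each promoter on the hg19 site list of the deposited files. In hg19 the sites span chr4:16085386-16085543 and chr4:16084939-16085107 for PROM1, chr7:112579923-112580153 for SAMTOR, chr22:41593489-41593689 for EP300-AS1, chr5:10563941-10564128 for ANKRD33B and chr21:45432002-45432218 for TRAPPC10. These spans and the promoter counts below also take in the 50 bases after the start.

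On chromosomes 1 to 22 and X the HpaII libraries held 5050658 tags in the control, 6220286 in AA1 and 2662391 in AA2. The MspI libraries held 11431291, 5011329 and 3472351 tags in the same order. The control HpaII library stood apart in how its tags were spread: they lay at 105450 sites with a median of 17 tags per listed site, against 274230 sites with a median of 10 in AA1 and 133674 sites with a median of 8 in AA2. Every AA difference below is measured against this 1 library. Depending on the library, 7.20% to 9.75% of the sites carried fractional counts (tolerance 1e-06), which arise when a tag is shared out among several alignments. These are called split counts below, and their place in the genome is uncertain. No molecular identifier is described for the 18 cycles of PCR, and every interval and floor therefore covers counting error only. The mitochondrial genome, which stayed out of the totals, had a ratio of 0.364 in the control, 3.02 in AA1 and 2.83 in AA2, taken over all tags. Scaling to mitochondrial tags in place of nuclear totals would shift every AA minus control log2 difference by -3.05 in AA1 and -2.99 in AA2, so "higher" and "lower" below are relative to the nuclear mean. What the mitochondrial difference has to do with the nuclear ones was not tested.

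The first question was whether AA moved HpaII tags between CCGG-poor and CCGG-rich DNA. Fixed 1 kb windows were sorted by the number of reference CCGG sites they hold. In windows with 1 to 2 sites the ratio was 0.194 in the control, 0.380 in AA1 and 0.373 in AA2. Both AA values lay above the control by far more than they lay apart (SD 0.00467, n = 2), at 1.95 times it (geometric mean). In windows with 3 to 7 sites it was 0.574, 0.721 and 0.696, or 1.23 times the control. The order turned in denser DNA. Windows with 8 to 15 sites had 2.02 in the control, 1.81 in AA1 and 1.72 in AA2, or 0.873 times the control. In windows with 16 or more sites, where CpG islands lie, the ratio was 3.76, 2.59 and 2.46, or 0.671 times the control. At 1 to 2 sites the difference lay in the HpaII libraries: these windows took 5.14% of the HpaII tags of the control, 10.2% of those of AA1 and 9.37% of those of AA2, while their MspI share was 26.6%, 26.9% and 25.1%. At 16 or more sites both enzymes differed, with 23.8%, 17.2% and 19.2% of the HpaII tags and 6.32%, 6.66% and 7.77% of the MspI tags. With 1 control and 2 AA samples the smallest p of an exact permutation test is 0.333, so these class values are a description. Leaving out sites with counts that were not whole gave 1.73 times the control at 1 to 2 sites and 0.693 times at 16 or more.

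**Figure D1:**
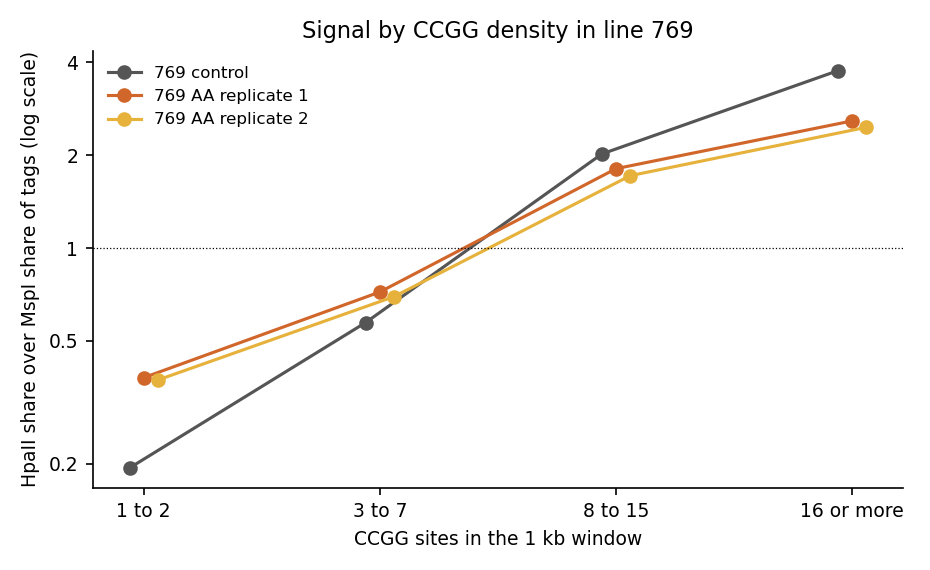
The ratio of HpaII to MspI tag share (log scale) in 4 classes of 1 kb windows by their number of CCGG sites, with 1 point per DNA sample of line 769. The AA samples lie above the control at 1 to 2 and 3 to 7 sites and below it at 8 to 15 and at 16 or more, and lie close to each other in every class.

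The number of sites that HpaII reached differed as well, and here AA1 and AA2 differed widely. Of the 35727 sites with at least 10 MspI tags in each DNA sample, HpaII gave a tag at 26.7% in the control (95% Wilson interval 26.3% to 27.2%), 61.8% in AA1 (61.3% to 62.3%) and 34.6% in AA2 (34.1% to 35.1%). Thinned to the same HpaII depth of 2661394 tags, the shares were 23.9%, 51.03% and 33.8%. The 2 AA samples thus lay above the control and farther from each other than AA2 lay from the control. Where the window held 1 to 2 CCGG sites the shares were 9.94% in the control, 48.5% in AA1 and 16.2% in AA2. Where it held 16 or more they were 68.0%, 90.2% and 75.8%.

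By their medians, windows with a promoter lay below the control with AA, and windows without a placed promoter lay above it. A promoter was counted as lying in a 1 kb window when at least 1 of its listed CCGG sites did. Tested windows had at least 10 MspI tags in each MspI library of both lines and 10 HpaII tags in all in 769. Of these 23331 windows, 4288 held a promoter. In these, 2.92% had 0 HpaII tags in the control, 0.0933% in AA1 and 1.52% in AA2. Their median ratio was 3.34 in the control, 2.86 in AA1 and 2.54 in AA2. Ratios of 5 or more were found in 34.2% of them in the control, 12.9% in AA1 and 20.6% in AA2, while ratios between 2 and 5 were found in 34.3%, 62.1% and 39.7%. The spread over promoter windows was thus narrowest in AA1. The 19043 windows without a placed promoter had medians of 0.862, 1.79 and 1.16. Of those, 26.5% had no HpaII tag in the control, 1.11% in AA1 and 16.4% in AA2. Low ratios were therefore most frequent in the control and high ratios too, and AA2 lay between the control and AA1 at both ends. The control HpaII library also held its tags at the fewest sites, and the part of that in these shares was not tested. Windows with 0 control tags could also enter the tested set through their AA tags alone.

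**Figure D2:**
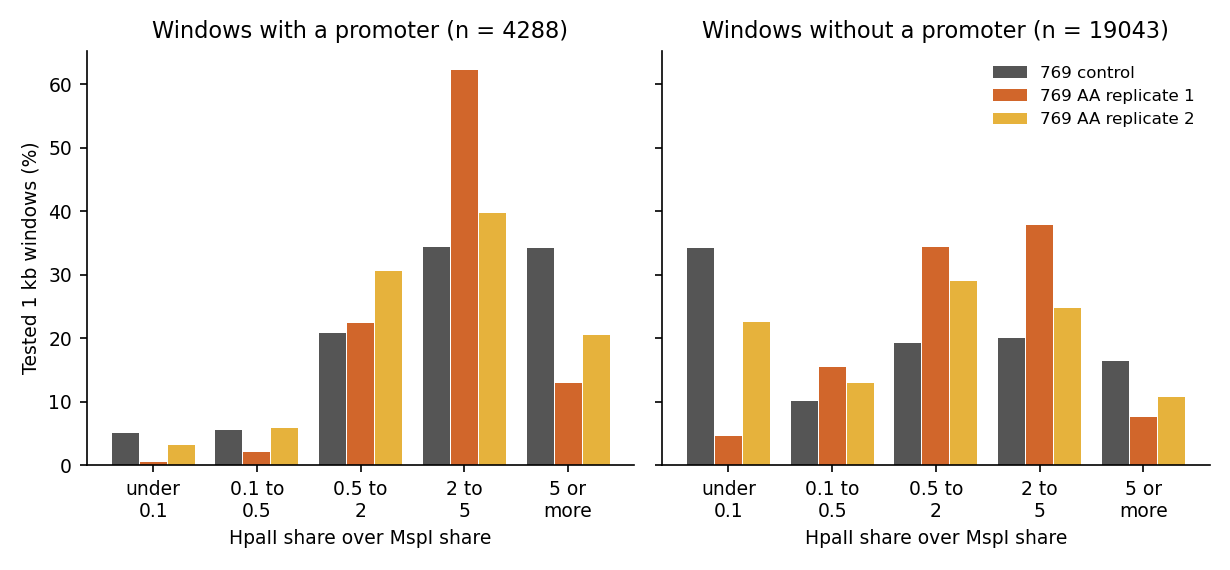
Share of tested 1 kb windows (%) by ratio of HpaII to MspI tag share, for windows with and without a placed promoter, in the 3 DNA samples of line 769. The control has the largest shares under 0.1 and at 5 or more, and AA1 the largest share between 2 and 5.

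Single promoters were read at their own CCGG sites. Of the 8308 RefSeq promoters with at least 4 sites, 6710 could be placed and 3570, of 3252 genes, had enough tags. A ratio under 0.1 was called closed and a ratio of at least 1 open. In the control 388 promoters were closed. Of these 217 (55.9%) were open in AA1 and 151 (38.9%) in AA2. Choosing on one library favours such a return, so the mirror counts stand beside them: of the 103 promoters closed in AA1, 10 were open in the control and 8 in AA2, and of the 284 closed in AA2, 104 were open in the control and 133 in AA1. Closed in the control and open in both AA samples were 126 promoters. The reverse, closed in both AA samples and open in the control, held for 5. Closed in AA2 and open in the other pair were 80, and closed in AA1 and open in the other pair were 3. The set closed in the control only was thus the largest, followed by that of AA2. Promoters can share sites, as HADHA and HADHB do among the 126, so these are not counts of separate readings.

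The 126 included promoters of genes with known roles in metabolism and transcription. They were named after their values were seen, as those with the highest ratio in the lower of the 2 AA samples or with a well-known product, and they carry no test. PFKFB3, which makes the fructose 2,6-bisphosphate that drives glycolysis, had 5 HpaII and 121 MspI tags in the control, 355 and 51 in AA1, and 201 and 40 in AA2. Those are ratios of 0.0935, 5.61 and 6.55. The same sites serve the start of PFKFB3-AS1 on the other strand. At NFIL3, a basic leucine zipper repressor, the control had 0 HpaII tags beside 79 of MspI, AA1 had 96 beside 16 and AA2 had 198 beside 13. ACADVL, the first enzyme of mitochondrial oxidation of very long fatty acids, shares its sites with DLG4 and had ratios of 0.0719, 3.77 and 3.57. BOK-AS1, an antisense RNA gene, had 0 HpaII tags and 25 of MspI in the control, 134 and 16 in AA1, and 74 and 14 in AA2. WT1-AS, antisense to the kidney transcription factor gene WT1, had 0 and 108, 147 and 28, and 30 and 11. Their windows did not pass the test described next. Its adjusted p (edgeR) ran from 0.149 at ACADVL to 0.989 at WT1-AS.

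Another 75 promoters of 73 genes were closed in all 3 DNA samples. Among them USP29, a gene of an imprinted domain, had 1 HpaII tag beside 182 of MspI in the control and 0 beside 44 and 42 in the AA samples. BNC1, which encodes the zinc finger protein basonuclin, had 0, 1 and 0 HpaII tags beside 126, 26 and 37 of MspI. TRPM2-AS had 0, 1 and 0 beside 139, 23 and 10. At these promoters HpaII tags were at or near 0 with and without AA.

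Each 1 kb window was then tested for a change in HpaII relative to MspI with edgeR's quasi-likelihood test, fitted over all 12 libraries so that the spread comes from the AA pairs of both lines. This takes the lone 769 control to be as variable as the AA samples. At a Benjamini-Hochberg adjusted p under 0.05, 149 of the 23331 windows were called (0.639%), of which 147 rose (0.63%) and 2 fell (0.00857%). At an unadjusted p under 0.05 there were 3966 (17%). The median log2 fold change was 0.66 over all tested windows and 6.47 over the 5163 of them with 0 HpaII tags in the control, a window being able to pass the filter through its AA tags alone. With at least 10 HpaII tags asked of each 769 HpaII library the median was 0.04, and 42 windows rose and 6 fell, of which 13 were also among the 149. On simulated data the test reached only very large changes. Over the same 23331 windows, 0% of 200 changed 8-fold, 5.5% of those changed 32-fold and 68% of those changed 256-fold were called. The changed windows were drawn from the better covered ones, raised and lowered in equal number, and all windows had the same dispersion. Windows with 0 tags in the control alone were not built in, so these shares do not give the power for such windows. The number called also depended on the processing. It was 0 after thinning the 769 libraries to the smallest of each enzyme (3133 at an unadjusted p under 0.05), 3278 with DESeq2, and 1511 and 1240 without AA1 and without AA2.

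The risen windows were counted by CCGG density. Of the tested windows with 1 to 2 CCGG sites, 16 of 1014 rose (1.58%), against 82 of 8872 (0.924%) with 3 to 7, 43 of 10458 (0.411%) with 8 to 15 and 6 of 2987 (0.201%) with 16 or more. Of the windows with a promoter 6 of 4288 rose (0.14%), against 141 of 19043 (0.74%) without. These shares carry no test, since windows with 0 control tags entered through their AA tags alone, and they made up 649 of the 1014 windows with 1 to 2 sites. In the control 100 of the 147 had no HpaII tag, where 5163 of all 23331 tested windows (22.1%) had none, and 135 had fewer than 10. The 147 windows lay in 142 different 100 kb bins. Their pooled ratio was 0.149 in the control, 2.74 in AA1 and 2.48 in AA2, and these values chose the windows. Split counts made up most of the tags in 17 of them. Of the 12764 control HpaII tags in that pooled ratio, 4257, 4248, 2169 and 1813 came from single windows of split counts. The first pair, chrX:55207001-55208000 and chr7:141504001-141505000, also had near-equal HpaII tags in AA1 (13680 and 13633) and in AA2 (25475 and 25423). These may be the same tags shared out between both places and counted as separate risen windows, which was not tested. In the 121 windows of whole counts only, the pooled ratio was 0.0121, 2.15 and 2.40. On the ratio scale, the gap between the control and the nearer AA sample was larger than the gap between AA1 and AA2 in 102 of the 147. No window was called for a difference in AA effect between the lines (edgeR, 0 at an adjusted p under 0.05 and 2847 at an unadjusted one).

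The same windows were read in line 786. Since they were chosen partly for a low 769 control, the gap between the 2 controls at them is a description. In the 121 windows of whole counts the 786 control, which did not enter the choice by its level, had 634 HpaII tags and a pooled ratio of 1.496 (95% exact Poisson interval 1.38 to 1.62), beside 1.82 over all tested windows of whole counts. The 786 AA samples had 1.46 and 1.98. Over all 147 windows the pooled ratio was 2.08 in the 786 control, and 58 of them had no HpaII tag in that shallow library.

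**Figure D3:**
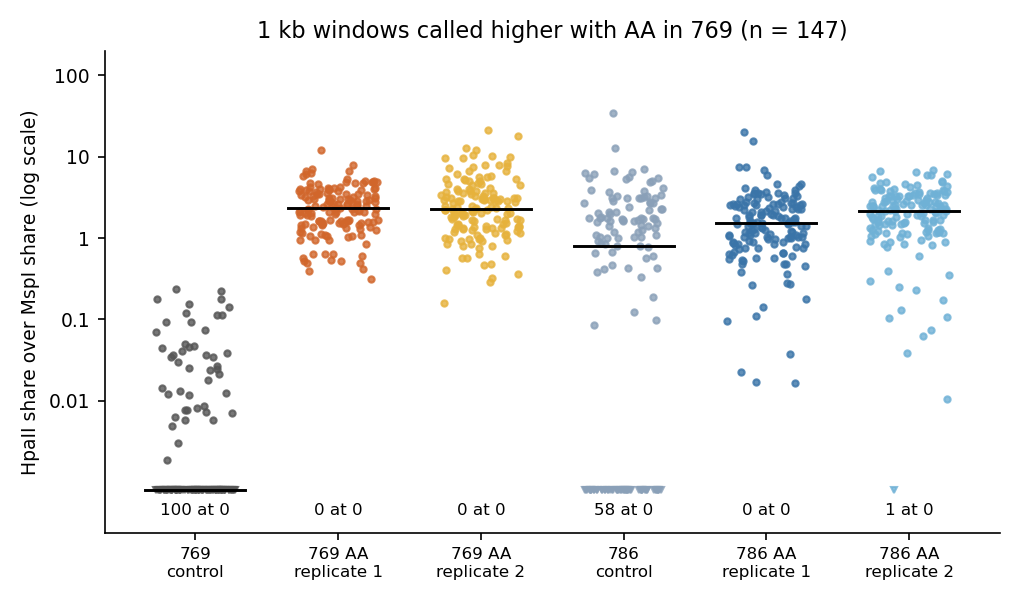
Ratio of HpaII to MspI tag share (log scale) of the 147 windows that rose with AA in line 769, in all 6 DNA samples of both lines. Each point is a window, triangles at the bottom are windows with 0 HpaII tags, and the line is the median, which is 0 in the 769 control; 100 windows have 0 HpaII tags in the 769 control and 58 in the 786 control.

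Of the 147 risen windows, 6 held a placed promoter. PROM1, which encodes a membrane glycoprotein used as a stem cell surface marker, lay in chr4:16085001-16086000. HpaII gave 0 tags there in the control, 321 in AA1 and 192 in AA2, beside 296, 158 and 113 of MspI. The ratios were 0, 1.64 and 2.22, at least 71.4-fold higher in AA1 and 96.6-fold higher in AA2 against a floor of 3 tags in the control library (adjusted p = 0.0349, edgeR). Sites of both starts printed above lay in it. The sites of the inner start had 0 HpaII tags beside 190 of MspI in the control, 136 beside 55 in AA1 and 66 beside 56 in AA2. Those of the outer start had 0 beside 4, 52 beside 31 and 152 beside 3. At position 16085505 of the outer start HpaII gave 0, 50 and 91 tags beside 0, 0 and 1 of MspI. These were most of the HpaII tags of that start. At 16085107 of the inner start HpaII gave 0, 92 and 22 beside 113, 52 and 33 of MspI. At 16084954 it gave 0, 24 and 39 beside 0, 0 and 1. The control had no tag of either enzyme at 16085505 and 16084954, so its 0 there does not show a closed site.

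SAMTOR, a sensor of S-adenosylmethionine that acts on the mTORC1 pathway, lay in chr7:112579001-112580000. Its window had 0 HpaII tags beside 156 of MspI in the control, 307 beside 83 in AA1 and 84 beside 90 in AA2. The ratios of 0, 2.98 and 1.22 make it at least 68.5-fold higher in AA1 and 27.97-fold higher in AA2 (adjusted p = 0.0363, edgeR). At the 4 sites of the promoter, of which 1 lies in the window, the control had 0 HpaII tags beside 147 of MspI, AA1 had 151 beside 52 and AA2 had 67 beside 26. The site at 112579923 held 138 of the tags of AA1 and 55 of those of AA2.

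EP300-AS1, antisense to the gene of the histone acetyltransferase EP300, lay in chr22:41593001-41594000. HpaII gave 6 tags in the control, 545 in AA1 and 181 in AA2, beside 184, 36 and 23 of MspI. The ratios were 0.0738, 12.2 and 10.3, a log2 fold change of 7.37 ± 1.24 (SE; adjusted p = 0.0372, edgeR). At its own 4 promoter sites the HpaII tags were 3, 109 and 10.

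ANKRD33B, which encodes an ankyrin repeat protein, lay in chr5:10564001-10565000. There the HpaII tags were 6, 303 and 108 beside 291, 87 and 101 of MspI, with ratios of 0.0467, 2.81 and 1.39 and a log2 fold change of 5.54 ± 1.12 (SE; adjusted p = 0.0492, edgeR). The call was lost with library totals (0.0538), with no low count filter (0.146), without the 786 control (0.0501) and without 786 AA1 (0.0546, all adjusted p of edgeR). The control had no tag of either enzyme at the sites of the promoter itself, so the change was read at other sites of the window.

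In the remaining pair only 1 promoter site lay in the window. ACTR3, a subunit of the actin-nucleating Arp2/3 complex, had window ratios of 0.0707, 2.23 and 2.98 in chr2:114647001-114648000 (log2 fold change 5.31 ± 1.01, SE; adjusted p = 0.0402, edgeR, and 0.0631 without 786 AA1). Its own 4 sites were open in all 3 DNA samples, at 5.18, 5.84 and 58.7. TSPAN14, a tetraspanin, had window ratios of 0.113, 3.48 and 9.75 in chr10:82214001-82215000 (log2 fold change 5.83 ± 0.98, SE; adjusted p = 0.0372, edgeR) and 2.39, 1.55 and 7.97 at its own sites. The promoter sites had 69, 12 and 2 MspI tags at ACTR3 and 108, 26 and 9 at TSPAN14, so their AA2 ratios rest on few MspI tags. At both genes the DNA beside the promoter differed with AA while the promoter sites were already cut in the control.

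Among windows with at least 10 HpaII tags in each of the 3 libraries, the 8 rises with the smallest p include TSPAN14. The others hold no placed promoter. In chr9:131580001-131581000 HpaII gave 23 tags in the control, 911 in AA1 and 219 in AA2 beside 459, 236 and 142 of MspI, with ratios of 0.113, 3.11 and 2.01 (log2 fold change 4.63 ± 0.84, SE; adjusted p = 0.0372, edgeR). The nearest placed promoter, that of TBC1D13, is 30.5 kb away. In chr3:132441001-132442000 the HpaII tags were 21, 566 and 253 and the ratios 0.156, 6.25 and 12.2. In chr7:77326001-77327000 they were 34, 666 and 260 with ratios of 0.141, 4.29 and 2.83. Each of these windows had higher HpaII tag shares in both AA samples while the MspI shares differed less.

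The other 4 of the 8 rest on split counts. In chr9:79186001-79187000, chr1:565001-566000 and chr7:141504001-141505000 split counts held all tags, and in chr11:319001-320000, 0.526 kb from the IFITM3-AS1 promoter, 97.6%. The windows on chromosomes 1 and 7 were the deepest of the named ones. The chromosome 7 window held 4248 HpaII tags in the control, 13633 in AA1 and 25423 in AA2 at 1 CCGG site, beside 54071, 2332 and 13707 of MspI. HpaII alone, without MspI, gave it a log2 fold change of 2.86 that did not pass the test (adjusted p = 0.167, edgeR). For the chromosome 1 window it gave 2.71 (adjusted p = 0.140, edgeR).

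The 6 windows with the most AA tags among those with 0 in the control lay in CCGG-poor DNA of 2 to 4 sites. The bound given for each is that of the lower AA sample against 3 control tags. In chr19:54672001-54673000 HpaII gave 0 tags in the control, 858 in AA1 and 174 in AA2, beside 437, 161 and 73 of MspI, at least 200.1-fold higher with AA. In chr4:619001-620000 it gave 0, 331 and 479 tags beside 346, 124 and 29, at least 109.6-fold higher; there AA2 alone would give 1098-fold. The window chr5:150219001-150220000 had 0, 511 and 199, at least 263-fold higher, and chr12:122214001-122215000 had 0, 392 and 290, at least 128-fold higher. For chr12:19593001-19594000, with 0, 682 and 172 tags, the bound was 82.6-fold. The sixth window, on chromosome 8, had 0, 561 and 35 tags and a bound of 81.2-fold, set by AA2; AA1 alone would give 288-fold. In each AA sample at least 51.5% of the tags of each window came from 1 CCGG site.

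**Figure D4:**
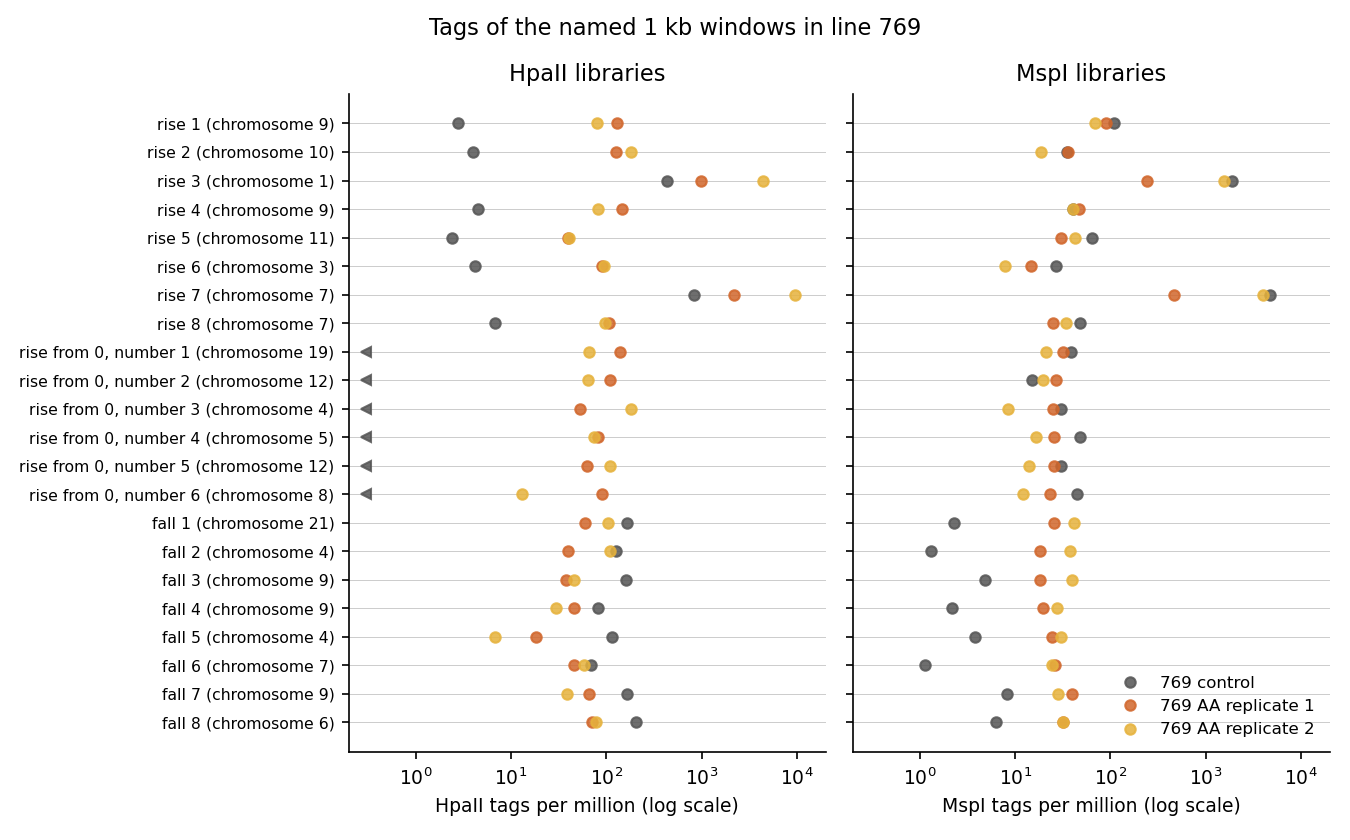
Tags in CPM (log scale) of the HpaII libraries (left) and MspI libraries (right) of line 769 at 22 named 1 kb windows: 8 rises with tags in every library, 6 rises from 0 and 8 falls, of which 1 passed the test. In the rises the control HpaII points (triangles are 0) lie to the left of the AA points. In the falls the control MspI points lie to the left of the AA points and the control HpaII points to the right.

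Falls were few. The 2 windows that passed were that of TRAPPC10, which encodes a subunit of the TRAPPII complex of vesicle traffic, and chr20:62097001-62098000. At TRAPPC10 (chr21:45432001-45433000, 32 CCGG sites) HpaII gave 828 tags in the control, 374 in AA1 and 280 in AA2, beside 26, 127 and 144 of MspI. The ratios were 72.1, 2.37 and 2.54, so the window fell by 4.70 ± 0.87 on the log2 scale (SE; adjusted p = 0.0379, edgeR). Much of that lay in the MspI libraries: scaled to library totals, the MspI tags were 2.27 CPM in the control, 25.3 in AA1 and 41.5 in AA2, and the HpaII tags 164, 60.1 and 105 CPM. HpaII alone gave a log2 fold change of -0.95 that did not pass (adjusted p = 0.309, edgeR). At the 7 listed sites of the promoter itself the HpaII tags were 292, 127 and 151 beside 9, 47 and 58 of MspI. In chr20:62097001-62098000 HpaII gave 318, 15 and 1 tags beside 249, 191 and 163 of MspI, with ratios of 2.89, 0.0633 and 0.00800 (log2 fold change -6.22 ± 1.11, SE; adjusted p = 0.0372, edgeR). There the HpaII tags themselves were nearly gone after AA. It was named after its values were seen, since AA2 held fewer than 10 HpaII tags.

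The next 7 falls by p did not pass. Their adjusted p (edgeR) ran from 0.0509 to 0.0646. They include the promoter windows of TEX10, C9orf85, TLR2, IER5L and GMDS. The TLR2 window (chr4:154605001-154606000), next to the gene of a receptor for bacterial lipoproteins, had 586 HpaII tags in the control, 115 in AA1 and 18 in AA2 beside 43, 122 and 105 of MspI (adjusted p = 0.0530, edgeR). The 4 TLR2 promoter sites themselves had 0, 13 and 3 HpaII tags beside 37, 42 and 5 of MspI, with ratios of 0, 0.249 and 0.783. By these values window and promoter differed in opposite directions, but those of the promoter rest on few tags, most of all in AA2. At GMDS, which encodes the first enzyme of GDP-fucose synthesis, and at GMDS-DT on the other strand, the window had 1032, 441 and 209 HpaII tags beside 72, 161 and 111 of MspI. In all 8 falls the control had fewer MspI tags in CPM than both AA samples, from 1.14 at chr7:100027001-100028000 to 8.31 at IER5L, against 18.2 to 41.5 in the AA samples.

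The size of these differences was set against the spread between the libraries. Over the 16324 windows with at least 10 tags in all 6 libraries, the ratio differed more than 4-fold between AA1 and the control in 23.03%, between AA2 and the control in 28.9% and between AA1 and AA2 in 16.4%. For MspI alone, which does not read methylation, the shares were 5.63%, 9.76% and 4.54%. By the share over 4-fold AA1 and AA2 lay closer to each other than either lay to the control in both readings. By the median absolute log2 difference this held for the ratio (0.92 between AA1 and AA2, 1.08 and 1.255 against the control) and not for MspI alone, where AA1 was 0.64 from AA2 and 0.61 from the control. In these windows lower ratios outnumbered higher ones: AA1 was more than 4-fold above the control in 10.4% and below it in 12.7%, and AA2 in 11.1% and 17.8%, with median log2 differences of -0.19 and -0.36. Whether the wider spread against the control is that of the treatment or of the 1 control cannot be told apart.

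In 100 kb bins, which hold more tags, 566 of 13846 tested bins were called (4.09%, edgeR, adjusted p under 0.05), of which 542 rose (3.91%) and 24 fell (0.173%). At an unadjusted p under 0.05 there were 2791, and the median log2 fold change was 0.30. In the risen bins the pooled ratio was 0.139 in the control, 0.782 in AA1 and 1.16 in AA2, and 211 of them had no HpaII tag in the control. In the 24 fallen bins the pooled ratio was 3.47, 1.71 and 1.69. These values chose the bins.

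The first 3 of the 5 named rises lay on the distal long arm of chromosome 9. In chr9:133200001-133300000, 19.9 kb from the placed promoter of ASS1, the urea cycle enzyme argininosuccinate synthase, HpaII gave 22 tags in the control, 479 in AA1 and 159 in AA2. MspI gave 2749, 873 and 660 there, and the ratios were 0.0181, 0.442 and 0.314 (log2 fold change 4.35 ± 0.47, SE; adjusted p = 0.00110, edgeR). HpaII tags lay at 5 sites in the control, 24 in AA1 and 12 in AA2. In chr9:137700001-137800000 the ratios were 0.0590, 0.641 and 0.566, and in chr9:137100001-137200000, which holds the LOC124902299 promoter, 0.0218, 0.322 and 0.217. The bin chr2:241200001-241300000, 74.9 kb from the promoter of the glypican gene GPC1, had 0.0307, 0.419 and 0.562. All 4 bins stayed below the genome mean of 1 in both AA samples. In the remaining one, chr2:49400001-49500000, 1 site whose counts were not whole held the HpaII tags.

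The fallen bins were of several kinds. In chr2:2600001-2700000 HpaII gave 930 tags in the control, 198 in AA1 and 63 in AA2 beside 891, 530 and 200 of MspI, with ratios of 2.36, 0.301 and 0.411. The bin fell by 2.77 ± 0.58 on the log2 scale (SE; adjusted p = 0.0230, edgeR), and HpaII alone fell by 2.79 (adjusted p = 0.00281, edgeR). The bin chr7:155700001-155800000 went from 0.611 to 0.147 and 0.0732 (adjusted p = 0.0311, edgeR). In chr7:98900001-99000000, 6.18 kb from the PDAP1 promoter, the ratios were 3.63, 1.19 and 0.940. In chr9:103100001-103200000, which holds the promoters of TEX10 and MSANTD3, they were 8.38, 2.48 and 2.11. In chr21:9800001-9900000, where 99.9% of the tags lay at sites with counts that were not whole, HpaII alone did not pass (adjusted p = 0.107, edgeR). Of these 5 named falls, the bin on chromosome 2 passed under each alternative that gave it a value, and the other 4 lost the call under at least 1, at adjusted p (edgeR) of 0.0505 to 0.134. The AA effect differed between the lines in 131 bins. In 111 of them the signed log2 change was higher in 769, which a fall in 786 can also give. The 786 control HpaII library held a median of 5 tags per tested bin.

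By chromosome arm the ratios differed little. Both AA samples lay above the control in 11 of 42 arms and below it in 22 by pooled tags. Medians of the tested windows put them above it in 24. Windows with 0 control tags could enter those medians through their AA tags alone, which favours higher AA values. The arms farthest from the control were Xp, at 0.574 in the control, 0.984 in AA1 and 1.18 in AA2, and 21p, at 3.51, 2.11 and 2.27. Both rest on sites whose counts were not whole, which held 33.4% of the 769 tags of Xp and 98.2% of those of 21p. Over whole counts alone Xp had 0.732, 0.832 and 0.766, or 1.14 and 1.05 times the control. On 21p the direction turned, to 0.243, 0.340 and 0.481. The 1.16-fold and 1.33-fold values of 1p likewise became 1.02-fold and 1.03-fold, and the 1.17-fold and 1.30-fold values of 7q became 1.01-fold and 1.04-fold. Whole counts left both AA samples above the control in 18 arms. Chromosome X as a whole, which lies below the autosomes in the control, was at 0.672, 0.819 and 0.732 over whole counts, while chromosomes 1 to 22 were at 1.01, 1.00 and 1.01.

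**Figure D5:**
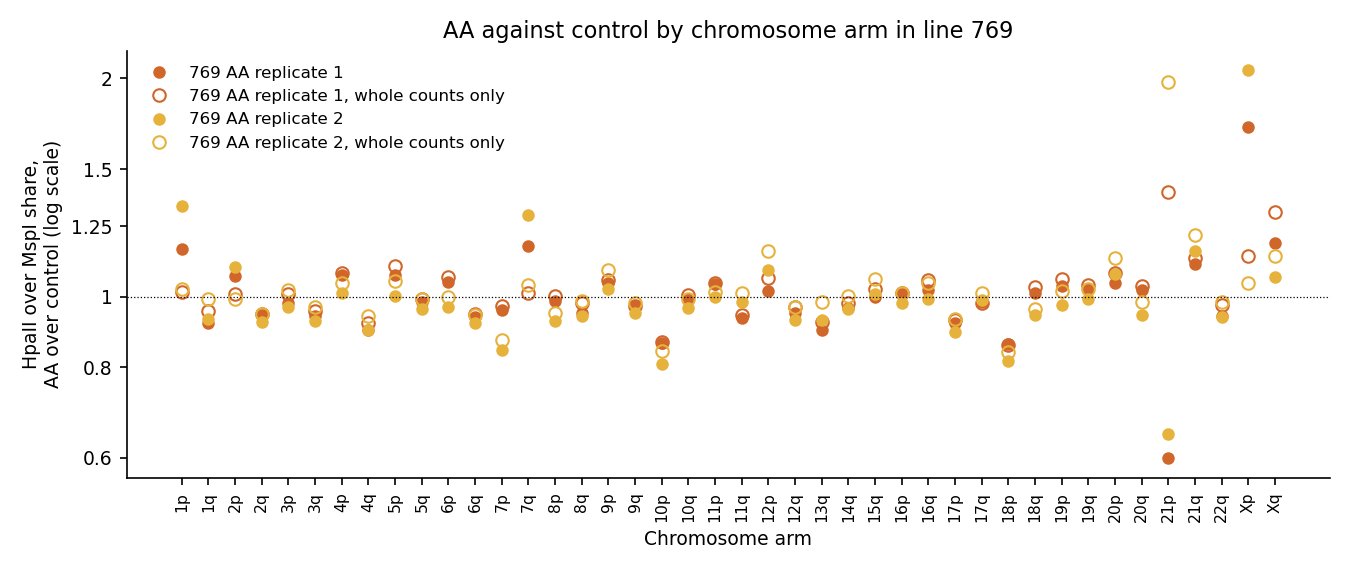
Ratio of HpaII to MspI tag share in AA1 and AA2 over that of the control (log scale) for 42 chromosome arms of line 769, over all sites (filled) and over sites with whole counts only (open). Most arms lie near 1; Xp, 1p and 7q move towards 1 and 21p changes sides when only whole counts are used.

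Risen windows were found on most arms. Of the 41 arms with at least 100 tested windows, 7 had none: 3p, 8p, 9p, 14q, 16q, 17p and 20p. The highest shares were those of 8q (16 of 838, 1.91%), 5p (6 of 321, 1.87%) and 12p (3 of 212, 1.42%), beside 0.63% over all windows. Within 1 Mb of the outermost listed sites of a chromosome 17 of 1884 windows rose (0.902%), from 1 to 5 Mb 40 of 5091 (0.786%), and farther in 90 of 16356 (0.55%). The ratio within 1 Mb of the ends was 0.855 in the control, 0.886 in AA1 and 0.942 in AA2. Over whole counts, which leave out 23.7% of these tags, it was 0.788, 0.794 and 0.779, so that AA2 no longer lay above the control.

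Gene clusters that are known for regulated methylation differed among themselves. Their borders were set to the nearest kb to Mb from general knowledge of hg19. The HOX clusters hold the homeobox genes of body axis patterning. HOXD had a ratio of 0.571 in the control, 0.981 in AA1 and 1.35 in AA2, or 1.72 and 2.36 times the control, and rested on 1559, 3484 and 1618 HpaII tags. By pooled tags HOXA (1.19, 1.15 and 0.993), HOXB (1.05, 1.10 and 0.925) and HOXC (1.31, 1.23 and 1.34) lay near the control. By window medians both AA samples lay above the control at HOXA (0.861 in the control, 1.98 and 1.37) and HOXB (0.156, 1.16 and 1.04). They lay on opposite sides of it at HOXC (1.22, 1.91 and 0.845). These medians are over tested windows, which windows with 0 control tags could enter through their AA tags alone. By themselves they do not show a rise. In the HOXB cluster 1 of 26 tested windows rose, beside 0.63% of all tested windows, and a single window says nothing about the cluster. The clustered protocadherins, cell adhesion genes with stochastic promoter choice, had 0.349, 0.487 and 0.476. The major histocompatibility complex had 1.15, 1.41 and 1.26, with 1 of 87 tested windows risen, again a single one.

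Imprinted domains, where the parental copies differ in methylation, ranged more widely. The DLK1-MEG3 domain was at 0.182 in the control, 0.461 in AA1 and 0.582 in AA2, on 265, 826 and 441 HpaII tags. The IGF2-H19 and KCNQ1OT1 domain was at 0.516, 0.713 and 0.555, the SNRPN domain at 0.767, 0.776 and 0.498 and the GNAS domain at 1.48, 1.13 and 1.26. The PEG3 domain had only 9, 38 and 36 HpaII tags, too few to place it. The replication-dependent histone genes of 6p22 split: the proximal block was at 0.130, 0.822 and 1.35 on 46, 423 and 264 HpaII tags, and the distal block at 3.56, 2.44 and 1.43. In all, both AA samples lay above the control in 8 of 17 loci. Clusters of zinc finger genes on chromosome 19 lay between 0.845 and 1.26 times the control by pooled tags. By window medians those of 19p12 were at 0.00760 in the control, 1.34 in AA1 and 0.990 in AA2. Those of 19q13.2 to q13.3 were at 0.737, 1.66 and 0.730. These medians too are over windows that could enter through their AA tags alone.

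Gene lists were read at the promoters that could be placed, which were few. No window at a promoter of any of the 5 lists was called higher or lower by edgeR. At an unadjusted p under 0.05 there was 1 of 6 tested windows in the list of TET enzymes and partners and 2 of 6 among the renal tumour suppressors, beside 11.4% of all tested windows with a promoter. DESeq2 called as many in each list, beside 9.05% of the windows with a promoter. Of 15 symbols for TET enzymes and partners of 5-methylcytosine turnover, 5 were placed and 3 measured. TET3, one of the 3 TET dioxygenases, had ratios of 4.67, 3.30 and 4.10 at 1 start and 1.04, 7.30 and 10.9 at another. DNMT3A, a de novo methyltransferase, had 1.85, 3.63 and 5.50 at 1 start and 0, 0 and 0.201 at another. IDH1, whose product makes the 2-oxoglutarate that TET enzymes use, had 11.8, 2.85 and 0.250. The median log2 fold change of the list was 0.40, beside -0.12 over all tested windows with a promoter and 0.66 over all tested windows.

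Of 5 symbols for ascorbate and dehydroascorbate transport only SLC2A1, the glucose transporter that also carries dehydroascorbate, was measured, at 3.96, 0.611 and 0.435 on 28, 22 and 4 HpaII tags (window log2 fold change -1.19, adjusted p = 0.479, edgeR). Of 15 tumour suppressors of renal carcinoma 4 were measured. RASSF1 had 84.98, 2.27 and 4.41, PBRM1, a subunit of the SWI/SNF remodeller PBAF, 14.03, 1.61 and 0.0543, and ARID1A 0.289, 7.58 and 0.0932. The control values rest on 11 MspI tags at RASSF1 and 15 at PBRM1. The AA2 values of PBRM1 and ARID1A rest on 1 HpaII tag each. Their windows did not pass, at adjusted p (edgeR) of 0.623, 0.478 and 0.909 in the same order. TSC2 had 1.90, 1.70 and 0.373 at 1 start and 1.37, 4.21 and 2.00 at another. AA1 and AA2 lay on opposite sides of the control at ARID1A. The median log2 fold change of this list was -0.74. Of 16 kidney lineage transcription factors PAX2 had 11.6, 8.95 and 3.08, and WT1 had 1.45, 2.83 and 1.73 (list median -0.10). None of the 9 secreted Wnt antagonists was placed.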

How the data were processed

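HELP-tagging counts of 6 libraries of line 769 were analysed, with 6 of line 786 for the pooled spread. The deposited files give expected counts of tags per CCGG site, with no normalization by the authors visible in them: totals ran from 3111094 to 12442031 tags per 769 library. The submitters' processing notes name hg19. An aligner was not given in the sources used here. Per the labels' protocols, ligated fragments were cut with EcoP15I and amplified over 18 PCR cycles.

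Counts were joined on the site number, kept on chromosomes 1 to 22 and X, summed in fixed 1 kb windows and 100 kb bins, and rounded. A window was tested if each MspI library of both lines held at least 10 tags in it. The 3 HpaII libraries of 769 also had to hold 10 tags together. The quasi-likelihood test of edgeR 4.0.16 (R 4.3.3) was run over 12 libraries. Its terms were DNA sample, enzyme, enzyme by line and enzyme by AA within each line. TMM factors were taken within enzyme, and 2 residual degrees of freedom remained. The fit was tested on simulated data. Of 446761 windows with a listed site 23331 passed, and of 28380 bins 13846. The DNA sample term pairs the HpaII and MspI library of each DNA sample.

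RefSeq promoters of GRCh38.p14 with at least 4 CCGG sites were placed where the distances between their sites matched 1 place of the hg19 list. Of 8308, 6938 matched once and 6710 (96.7%) also lay at the same distance from a neighbouring placed promoter in both builds; no coordinate was converted. Named windows are the 8 rises and 8 falls with the smallest p among those with at least 10 HpaII tags in each 769 HpaII library, followed by the next by p where fewer passed, and the 6 rises with the most AA tags among those with 0 in the control. Promoter windows that passed and the 5 rises and 5 falls of 100 kb bins were named too. The folds of windows with 0 control tags use a floor of 3 tags in that library, for each AA sample. Members and lists were chosen with earlier results of these data known. Alternatives were library totals, TMM over all libraries, DESeq2 1.42.0, other filters, thinning, HpaII alone, 769 alone, whole counts only, other blocks and leaving out each DNA sample. Python 3.11.15 with numpy 2.4.6, pandas 2.3.3, scipy 1.17.1 and matplotlib 3.10.9 was used for classes and figures.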

Additional observations from a re-analysis of the deposited data

Results flagged for a closer look

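The mitochondrial genome lies outside the main measurement and gave a signal above that of the control. Its ratio of HpaII to MspI share of all tags was 3.02 in AA1 and 2.83 in AA2 against 0.364 in the 769 control. The 786 samples had 2.63 in the control, 4.35 in AA1 and 1.98 in AA2. Whether these values bear on the nuclear differences was not tested.

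The AA effect differed between lines 769 and 786 in 131 bins of 100 kb by the test of the difference itself (edgeR, adjusted p under 0.05). The signed log2 change was higher in 769 in 111 of them and in 786 in 20, which a fall in the other line can also give. The 786 control HpaII library held a median of 5 tags per tested bin. No 1 kb window passed the same test, 2847 having an unadjusted p under 0.05.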

How the results depend on the processing

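The 1 kb count of 149 was within 1.5 times with library totals, TMM over all libraries, no filter, and without the 786 control or 786 AA1, and was 48 with at least 10 HpaII tags in every 769 HpaII library (13 shared), 0 thinned (3133 unadjusted), 274 with whole counts only (chosen after seeing the data), 555 with 769 alone, 1204 with HpaII alone and 3278 with DESeq2. Leaving out each DNA sample gave 138 to 1511. The count rose to 801 with no replicate block, that is without the DNA sample term, and was 525 with a replicate block for the AA number shared by both lines; those numbers do not pair the samples (Pearson r = -0.00307 over 16077 windows, across windows). The 100 kb count of 566 became 1044 with no filter, 309 with the stricter one, 335 thinned, 990 with HpaII alone, 950 with no replicate block, 411 with the block by AA number and 2259 with DESeq2, and 421 to 1391 leaving out each DNA sample. The fold of AA over control by density was 1.72 at 1 to 2 sites with sites counted, 2.95 with at least 10 MspI tags, 1.72 without the 1% of sites with the most HpaII tags and 1.73 with whole counts; at 3 to 7 sites 1.18 and 1.29 in the first 2 settings; at 8 to 15 sites 0.789 in the second; at 16 or more 0.698, 0.569 and 0.701 in the first 3. Leaving out an AA sample gave 1.93 to 1.96, 1.21 to 1.26, 0.850 to 0.896 and 0.655 to 0.687. Sites with an HpaII tag were 21.5 percentage points more frequent with AA, and 7.82 to 35.1 leaving out an AA sample. Arms with both AA samples above the control numbered 18 with whole counts and 24 by window medians. By window medians the geometric mean of AA1 and AA2 over the control crossed 1 at HOXA (1.92), HOXB (7.06), HOXC (1.04) and the zinc finger genes of 19p12 (152) and of 19q13.2 to q13.3 (1.49). At HOXC and 19q13.2 to q13.3 AA2 stayed below the control. The value of 152 starts from a control median of 0.00760. All these window medians, those of the arms included, are over tested windows. Windows with 0 control tags could enter that set through their AA tags alone. The causes were not tested. The smallest HpaII library, 2662391 tags in AA2, limits what a count of 0 can show, and 1 control limits every comparison.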
